A study of Homo sapiens with 14 samples.

Results

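The miR-103 and miR-107 family was represented by hsa-miR-103a-3p, hsa-miR-103b and hsa-miR-107, which were picked by name out of the 2848 entries of the count table (2346 of them named human miRNAs) and are written below without their species prefix. All 3 were listed and all 3 passed the filter on low counts, but only 2 had counts of their own, because miR-103b repeated the count of miR-103a-3p in all 14 libraries. The libraries came from PANC-1, an established human pancreatic ductal carcinoma line kept in DMEM with serum, and no genotype or edit was named. The cells received grape proanthocyanidins (PA), plant polyphenols, at 20 µg/ml for 3, 12 or 24 h, or the vehicle DMSO for 0, 3, 12 or 24 h, which made 7 groups of 2 libraries, lettered A and B. The PA groups thus had vehicle controls of the same duration, and no untreated cells without DMSO were among the 14. The series text speaks of a biological replicate but does not tell whether A and B were grown apart. P-values therefore rest on a spread between libraries that may in part be technical. In the fit of all 7 groups this spread was estimated over all groups, not from the groups compared alone.

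MicroRNAs are short RNAs cut from hairpins, and they lower the translation and stability of mRNAs that pair with their seed, bases 2 to 8. The genes of miR-103 and miR-107 lie in introns of the PANK genes, which encode pantothenate kinases, the enzymes that start the synthesis of coenzyme A. The family is known for regulating Dicer, caveolin-1 and insulin sensitivity in liver and fat, and miR-107 has also been described as a p53-responsive miRNA. They are expressed in many tissues and are not markers of one cell type.

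The mature sequences are shown because they decide which counts can be told apart. The capitals mark the seed, and the letters come from RefSeq on GRCh38.p14, which matched all 3 entries.
miR-103a-3p: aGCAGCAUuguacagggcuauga
miR-107: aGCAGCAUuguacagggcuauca
miR-103b: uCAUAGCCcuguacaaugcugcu
The first 2 share their seed and differed by a single substitution, G22C, counted from the 5′ end with the miR-103a-3p base first. A read that starts at base 1 and ends at or before base 21 therefore fits both miRNAs. The rule for reads that fit several places was not given in the sources used here, so how much of either count rests on such reads was not tested. No other human mature name in the RefSeq table, among 2370, had this seed. miR-103b is the exact reverse complement of miR-103a-3p and has another seed.

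The 3 hairpins are shown because the mature miR-103a-3p (capitals) comes from both MIR103A1 and MIR103A2, and its reads cannot be assigned to one of them.
MIR103A1: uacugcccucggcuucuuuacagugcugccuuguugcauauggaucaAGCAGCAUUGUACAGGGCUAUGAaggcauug
MIR103A2: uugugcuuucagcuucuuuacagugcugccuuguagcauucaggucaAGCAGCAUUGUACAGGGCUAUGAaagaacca
MIR107: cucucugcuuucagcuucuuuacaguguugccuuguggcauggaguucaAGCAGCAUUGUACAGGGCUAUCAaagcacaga
On GRCh38, the build named in the submitters' processing notes, MIR103A1 lies at chromosome 5, 168560896 to 168560973, minus strand, in PANK3. MIR103A2 lies at chromosome 20, 3917494 to 3917571, plus strand, in PANK2. MIR107 lies at chromosome 10, 89592747 to 89592827, minus strand, in PANK1. In GENCODE 29 each hairpin was intronic and on the strand of its host in every transcript that spanned it: 2 of 2 for PANK3, 8 of 8 for PANK2 and 3 of 3 for PANK1. In transcript PANK3-201, PANK2-201 and PANK1-201 it lay in intron 5 of a gene model with 7 exons. The mature miR-103b is annotated on the opposite strand of both MIR103A1 and MIR103A2, over the same 23 bases as miR-103a-3p.

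The row of miR-103b is not a separate measurement. The total was 163078 counts in both rows, and the values were equal library by library, so the rows also gave the same fold changes and p-values. The same held for every exact reverse-complement pair in the table: of 33 pairs of listed miRNAs that overlap by at least 15 bases on opposite strands, 6 were exact complements, and all 6 had identical counts in all 14 libraries. The others of these with a total of at least 100 were miR-374b-5p with miR-374c-3p (10919 counts each), miR-423-5p with miR-3184-3p (6088) and miR-550a-3p with miR-550b-2-5p (604). Of the 10 overlapping pairs that were not exact complements and had at least 100 counts in one entry, 0 were identical. The counts thus did not separate the strands of exact complements, and they cannot show whether any read came from miR-103b. Among the named miRNAs, 11 pairs with a total of at least 100 had identical counts. Besides the 4 exact complements, 5 had the same sequence, such as miR-365a-3p with miR-365b-3p (3693 counts each). The other 2 were not matched to RefSeq. Whether short reads were likewise counted for both miR-103a-3p and miR-107 was not tested. In what follows, values of miR-103a-3p stand for the rows of miR-103a-3p and miR-103b.

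Depth ran from 1032391 (DMSO 12 h B) to 3111014 counts per library (PA 3 h B), with a median of 2076388. miR-103a-3p took 0.461% to 0.733% of a library and miR-107 0.0355% to 0.0632%. By total count miR-103a-3p ranked 26 among the named miRNAs. The lowest member count in any library was 396, for miR-107 in DMSO 12 h B. Over the whole table the vehicle libraries of 12 h differed widely from the rest of the vehicle series: 134 of 810 tested entries (16.5%; 8.89% higher and 7.65% lower) passed at an adjusted p under 0.05 when DMSO 12 h was set against the mean of DMSO at 0, 3 and 24 h. The PA effects at 12 h are therefore also given against the other DMSO times. Of the 3 miRNAs taken as the PANC-1 side, miR-21-5p and miR-100-5p made up nearly all of a summed level of 256356 to 342814 CPM. The epithelial miR-200c-3p had group means of only 4.20 to 10.2 CPM, below the endothelial miR-126-3p at 408 to 698 CPM, so the sum does not speak for epithelial identity. The 12 markers of fibroblast, endothelial, blood, liver, muscle, neuron, acinar and islet cells summed to 403 to 836 CPM. CPM is a count relative to its TMM-adjusted library size.

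miR-103a-3p, the major family member, ranged from 4668 to 7313 CPM across the 7 groups. In DMSO it had 4784 and 4668 CPM at 0 h (A and B), 5012 and 4801 at 3 h, 5961 and 6880 at 12 h, then 5460 and 5439 at 24 h. With PA it had 4725 and 6203 CPM at 3 h, 6123 and 7256 at 12 h, then 7313 and 5199 at 24 h. The DMSO 0 h libraries were the lowest pair, and the 2 libraries of a PA group lay farther apart than those of DMSO at 0, 3 or 24 h. In ascending order of the mean, the groups were DMSO 0 h, DMSO 3 h, DMSO 24 h, PA 3 h, PA 24 h, DMSO 12 h and PA 12 h. DMSO 0, 3 and 24 h did not overlap one another, and from DMSO 24 h upward each group overlapped the next. Of all entries tested, 46% did not overlap between DMSO 3 and 0 h and 52.3% between DMSO 24 and 0 h. The share between DMSO 24 and 3 h was not counted.

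miR-107, the minor member, was lowest in DMSO 12 h. In DMSO it had 553 and 436 CPM at 0 h, 522 and 512 at 3 h, 345 and 360 at 12 h, then 567 and 541 at 24 h. With PA it had 509.5 and 487.5 CPM at 3 h, 613 and 556 at 12 h, then 557 and 504.5 at 24 h. Both DMSO 12 h libraries lay below all 12 others. The share of all entries with this pattern was not counted. The order of means was DMSO 12 h, DMSO 0 h, PA 3 h, DMSO 3 h, PA 24 h, DMSO 24 h and PA 12 h. DMSO 12 h did not overlap DMSO 0 h and PA 3 h lay just below DMSO 3 h, while the other neighbours overlapped. Of all entries tested, 50.5% did not overlap between DMSO 12 and 0 h and 32.3% between PA 3 h and DMSO 3 h.

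**Figure D1:**
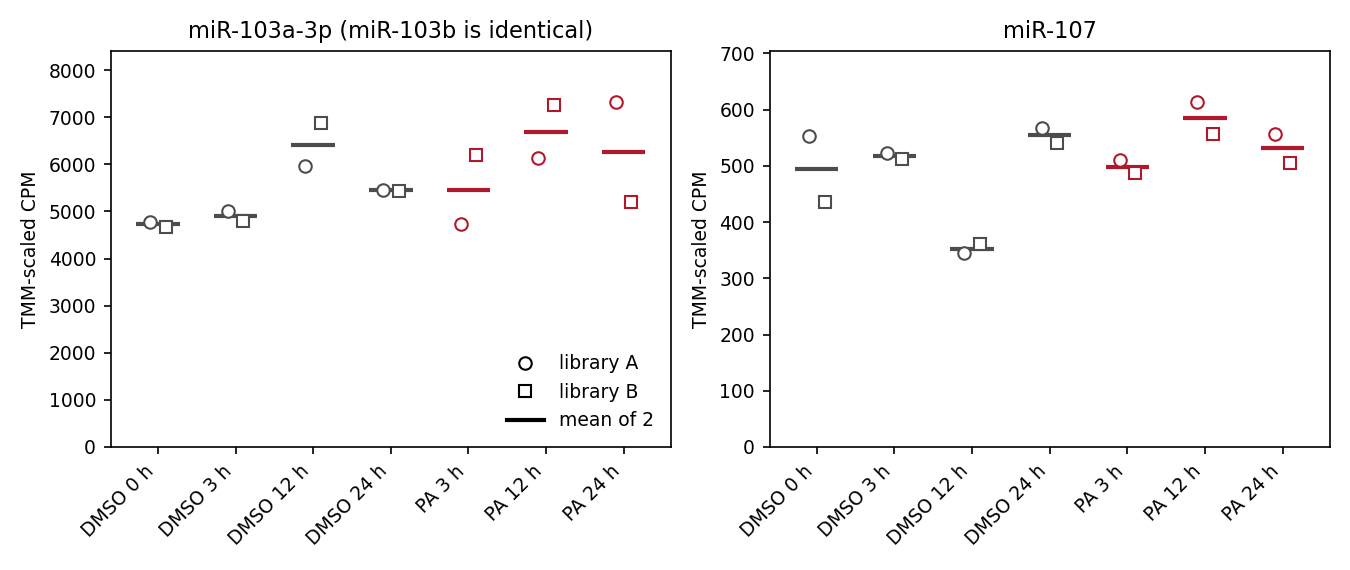
TMM-scaled CPM of miR-103a-3p (left) and miR-107 (right) in the 14 libraries, with circles for A, squares for B, bars for the mean of 2, DMSO in grey and PA in red. DMSO 12 h is the lowest pair for miR-107 (345 and 360 CPM) and among the higher pairs for miR-103a-3p (5961 and 6880 CPM).

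The comparison of PA with DMSO at the same time asked how exposure changed the members. At 3 h neither passed. miR-103a-3p went from 4906 ± 149 to 5464 ± 1045 CPM (SD, n = 2 each), with overlapping libraries. Its log2 fold change was 0.16 ± 0.18 (SE), with a 95% interval of -0.23 to 0.54. miR-107 had 517 ± 7.74 CPM in DMSO and 498 ± 15.6 in PA. Its log2 fold change was -0.05 ± 0.16, with an interval of -0.39 to 0.28. The edgeR adjusted p was 1 for both members. In this comparison 2 of 810 entries passed (0.247%), and 32.3% of all entries had libraries that did not overlap between the groups, as those of miR-107 did not.

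At 12 h miR-107 was higher with PA and miR-103a-3p was not called. miR-107 rose 1.66-fold, from 353 ± 10.5 CPM in DMSO to 584 ± 40 in PA (SD, n = 2 each). The log2 fold change was 0.73 ± 0.16 (edgeR adjusted p = 0.0107; interval 0.39 to 1.07). Both PA libraries lay above both DMSO libraries. miR-103a-3p had 6420 ± 650 and 6690 ± 801 CPM, overlapping libraries and a log2 fold change of 0.06 ± 0.18 (edgeR adjusted p = 0.88; interval -0.33 to 0.45). The share of all entries called at 12 h was 11.1% (90 of 810), 6.3% higher and 4.81% lower, and 52.1% of entries did not overlap. The call of miR-107 was lost with only the 4 libraries compared (log2 fold change 0.70, edgeR adjusted p = 0.125) and without PA 12 h A (0.69, adjusted p = 0.0795).

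Against the mean of DMSO at 0, 3 and 24 h, miR-107 in PA 12 h had a log2 difference of 0.16 ± 0.13 (edgeR adjusted p = 0.601; interval -0.11 to 0.44). In DMSO 12 h the difference from that same mean was -0.56 ± 0.14 (adjusted p = 0.00944), one of the 7.65% of entries called lower there. The call did not hold without DMSO 12 h A (-0.52, adjusted p = 0.0624). These comparisons share DMSO libraries, mix treatment with time in culture, and were chosen with the low DMSO 12 h values known. For miR-103a-3p the values were 0.41 ± 0.15 in PA 12 h (adjusted p = 0.256) and 0.36 ± 0.15 in DMSO 12 h (adjusted p = 0.104), both above the other DMSO times and neither called. With total-count scaling the second passed (0.40, adjusted p = 0.0488). The share of entries called in the PA 12 h comparison was 0.617%.

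The DMSO 12 h libraries also had the lowest sum of markers of other cells. The 12 markers of other cells summed to 449.9 and 403 CPM in DMSO 12 h A and B, against 642 to 836 CPM in DMSO at 0, 3 and 24 h and 498 to 679 in PA 12 h, and 5 of the 12 (miR-145-5p, miR-451a, miR-122-5p, miR-216a-5p and miR-217) had 0 counts in both DMSO 12 h libraries, as 5 did in DMSO 0 h and 1 to 3 in each other group. Most of this sum was miR-126-3p, with 408 ± 32.2 CPM in DMSO 12 h (SD, n = 2) and -0.61 ± 0.16 against the other DMSO times (edgeR adjusted p = 0.0168). Others went the other way, such as miR-375 of islet cells, with 6.48 CPM in DMSO 12 h and 2.06 to 2.71 in the other DMSO groups (1.33, adjusted p = 0.138). Their part in the level of miR-107 was not tested. In such bulk samples, fewer cells with a miRNA and less of it per cell cannot be told apart.

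At 24 h neither member passed. miR-103a-3p had 5449 ± 14.5 CPM in DMSO and 6256 ± 1494 in PA, a log2 fold change of 0.20 ± 0.18 (edgeR adjusted p = 0.573; interval -0.19 to 0.59). PA 24 h A lay above both DMSO libraries and PA 24 h B below both. miR-107 had 554 ± 18 CPM in DMSO and 531 ± 37.3 in PA, and its libraries overlapped. Its log2 fold change was -0.06 ± 0.16 (edgeR adjusted p = 0.872; interval -0.40 to 0.28). At this time 6.67% of entries were called and 52.1% did not overlap. The sign turned for miR-103a-3p without PA 24 h A (-0.049). Against the mean of DMSO at 0, 3 and 12 h, PA 24 h gave 0.24 for both members (edgeR adjusted p = 0.371 for miR-103a-3p and 0.291 for miR-107), in a comparison where 8.52% of entries passed.

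The PA effect on miR-107 was smaller at 24 h than at 12 h by a log2 difference of 0.79, coded as -0.79 ± 0.23 for 24 minus 12 h (edgeR adjusted p = 0.0405), where 8.64% of entries passed. This call was lost in 16 of 20 alternative settings, among them DESeq2 (adjusted p = 0.0638) and 13 of 14 fits without 1 library. The difference between 12 and 3 h, 0.78 ± 0.23, did not pass (adjusted p = 0.10; 1.23% of entries passed), nor did that between 24 and 3 h, -0.01 ± 0.22 (adjusted p = 0.997; 1.23%). Leaving out 1 library changed the number of entries called from 70 to between 28 and 118 for 24 minus 12 h, from 10 to between 0 and 39 for 12 minus 3 h and from 10 to between 3 and 19 for 24 minus 3 h. For miR-103a-3p the 3 differences were -0.10, 0.04 and 0.14 for 12 minus 3, 24 minus 3 and 24 minus 12 h, and none passed (lowest edgeR adjusted p 0.772). Averaged over the 3 times, with 6 PA and 6 DMSO libraries, the PA effect was 0.14 ± 0.12 for miR-103a-3p (edgeR adjusted p = 0.671) and 0.20 ± 0.14 for miR-107 (adjusted p = 0.593). No entry passed in that fit (0%; 118 of 808 had an unadjusted p under 0.05, and DESeq2 called 13). Without the 4 libraries of 12 h the mean effect on miR-107 was -0.03 ± 0.09.

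In DMSO alone, the members were compared with 0 h to show their change with time in the vehicle. At 3 h miR-103a-3p had a log2 fold change of 0.05 ± 0.18 and miR-107 one of 0.06 ± 0.16. At 24 h the values were 0.21 ± 0.18 for miR-103a-3p and 0.16 ± 0.16 for miR-107 (lowest edgeR adjusted p 0.577). The 3 h signs turned with total-count scaling (-0.10 and -0.084), which moved the median of all entries to -0.16. At 12 h miR-103a-3p was 0.44 ± 0.18 above and miR-107 0.49 ± 0.16 below 0 h, the latter coded as -0.49. Neither passed (adjusted p = 0.127 and 0.0605), though in both cases the libraries of the 2 times did not overlap. The background for calls was 0% at 3 h (70 entries at an unadjusted p under 0.05, edgeR), 12.7% at 12 h and 3.58% at 24 h, and 46%, 50.5% and 52.3% of entries did not overlap with 0 h at those times. miR-107 passed at 12 h with total-count scaling (-0.50, adjusted p = 0.0487).

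**Figure D2:**
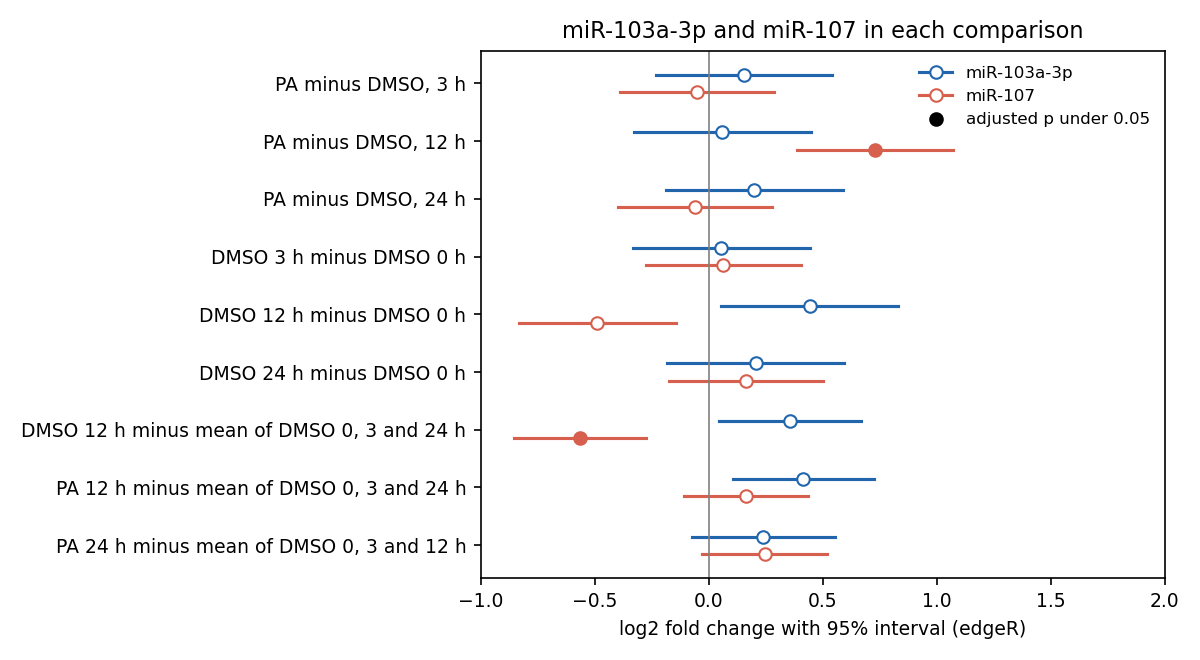
Log2 fold change with its 95% interval from the edgeR fit for miR-103a-3p (blue) and miR-107 (red) in 9 comparisons named on the left axis, filled where the adjusted p was under 0.05. Filled points appear for miR-107 alone, at 0.73 for PA minus DMSO at 12 h and at -0.56 for DMSO 12 h minus the other DMSO times. Both rest on the same DMSO 12 h libraries, and the latter comparison was chosen with their low values known.

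The share of miR-107 in the counts of miR-103a-3p plus miR-107 compares the members within a library, where a scaling factor common to both cancels. In DMSO it was 10.4% and 8.53% at 0 h (A and B), 9.44% and 9.63% at 3 h, 5.48% and 4.97% at 12 h, then 9.40% and 9.05% at 24 h. With PA it was 9.73% and 7.29% at 3 h, 9.09% and 7.12% at 12 h, then 7.08% and 8.84% at 24 h. The exact Clopper-Pearson 95% intervals of DMSO 12 h, 5.06% to 5.92% in A and 4.51% to 5.47% in B, lay below those of all 12 other libraries, of which the lowest, PA 24 h A, had 6.73% to 7.45%. They cover counting error only and leave out variation between libraries. PCR copies of a read are not separate molecules, so the intervals may be too narrow even for counting error. The counts of miR-103a-3p were thus 17.3 and 19.1 times those of miR-107 in DMSO 12 h, and 8.65 to 13.1 times in the other libraries. Reads that end at or before base 21 fit both miRNAs, and their part in this share was not tested.

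As a log2 ratio of miR-107 to miR-103a-3p, DMSO 12 h stood at -4.18 ± 0.10 (SD, n = 2), and the means of the other 3 DMSO groups lay between -3.30 and -3.25. The difference of DMSO 12 h from the other 6 DMSO libraries was -0.91, and -0.99 or -0.84 without DMSO 12 h A or B. It is given with no test, since DMSO 12 h was singled out with its low values known. The PA effect on the ratio was -0.20 at 3 h, 0.67 at 12 h and -0.24 at 24 h. Its mean of 0.08 did not pass the exact permutation test within times (two-sided p = 0.667; 216 arrangements, smallest possible p 0.00926). Without the 4 libraries of 12 h the mean was -0.22 (exact p = 0.222).

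Within each PA group, and in DMSO 0 h, the exact intervals of this share did not overlap between the 2 libraries. In PA the lower share was in PA 3 h B, PA 12 h B and PA 24 h A, and in each pair this was also the deeper library, with 3111014, 2534939 and 2816062 counts against 2420626, 1922203 and 1236935. The other 3 libraries of PA had 8.84% to 9.73%, within the range of DMSO at 0, 3 and 24 h. In DMSO, library A was the deeper of each pair and had the higher share at 0, 12 and 24 h and the lower at 3 h. Whether depth has a part in the spread within PA pairs was not tested.

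**Figure D3:**
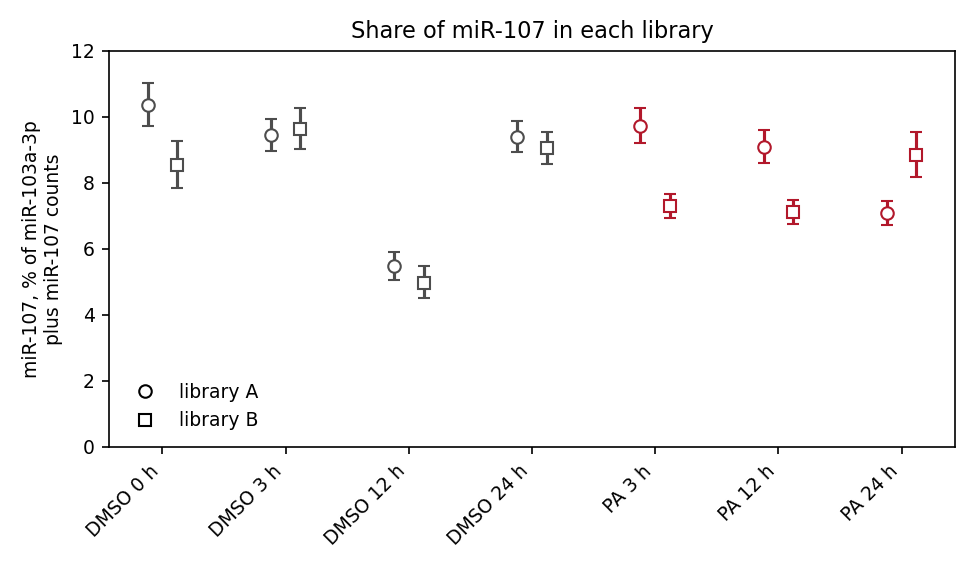
Share of miR-107 in the summed counts of miR-103a-3p and miR-107 per library (%), with exact 95% binomial intervals, circles for A, squares for B, DMSO in grey and PA in red. Both DMSO 12 h libraries (5.48% and 4.97%) lie below all others, the lowest of which is at 7.08%.

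The opposite arm of MIR103A2, miR-103a-2-5p, is the one listed entry annotated to a single miR-103a hairpin. It had 148 counts in all, from 4 to 21 per library, against 163078 for miR-103a-3p. Its level ran from 1.64 to 9.91 CPM, and its log2 fold changes with PA were 0.18 ± 0.64 at 3 h, 0.06 ± 0.72 at 12 h and 0.84 ± 0.76 at 24 h (lowest edgeR adjusted p 0.571). The arm miR-103a-1-5p of the PANK3 copy was not listed, and after base 1 its sequence is the same as that of miR-103a-2-5p. How reads of the PANK3 arm were counted was not tested, so the 148 counts cannot be assigned to the PANK2 copy alone. No change of miR-103a-2-5p with PA was called at this depth.

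A wider seed-related group joins miR-103a-3p and miR-107 to miRNAs that carry AGCAGC near the 5′ end. The capitals again mark bases 2 to 8, and 4 sequences are enough to show the offset.
miR-107: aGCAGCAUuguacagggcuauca
miR-16-5p: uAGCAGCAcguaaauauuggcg
miR-15a-5p: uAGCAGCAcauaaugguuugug
miR-424-5p: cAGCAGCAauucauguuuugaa
AGCAGC starts at base 1 in miR-103a-3p and miR-107 and at base 2 in the 9 others listed, and 0.549% of human mature names in the RefSeq table (13 names) hold it within bases 1 to 9. The 9 were miR-15a-5p, miR-15b-5p, miR-16-5p, miR-195-5p, miR-424-5p, miR-497-5p, miR-503-5p, miR-646 and miR-6838-5p. Of these, 7 passed the filter on low counts, and miR-646 and miR-6838-5p had 9 and 6 counts in all. These miRNAs are known as repressors of cyclins and BCL2.

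At 12 h of PA, 2 of the 7 tested relatives rose and 0 fell: miR-424-5p (log2 fold change 0.88 ± 0.21, edgeR adjusted p = 0.0168) and miR-15a-5p (0.59 ± 0.16, adjusted p = 0.0307). Over all entries 6.3% were called higher and 4.81% lower. Both calls were lost with only the 4 libraries compared (0.85, adjusted p = 0.094 for miR-424-5p and 0.57, adjusted p = 0.158 for miR-15a-5p). The call of miR-15a-5p was also lost without DMSO 0 h B, DMSO 3 h B, DMSO 12 h B, PA 12 h A or PA 12 h B, and that of miR-424-5p without DMSO 12 h A or PA 12 h A. miR-195-5p had 1.11 ± 0.40 and miR-497-5p 1.04 ± 0.54, with 41 and 18 counts over both DMSO 12 h libraries. The values of the others were 0.31 for miR-16-5p, 0.13 for miR-503-5p and 0.01 for miR-15b-5p. Without DMSO 12 h A or B, miR-195-5p had 2.21 (called, adjusted p = 0.00821) or 0.62 and miR-497-5p 1.78 or 0.67. The median was 0.59, beside -0.06 over all entries tested. At 3 and 24 h 0 of 7 passed, beside 0.247% and 6.67% of all entries. The medians were -0.05 and -0.36, beside -0.01 over all entries both times.

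miR-424-5p and miR-15a-5p, 2 of the 7 tested relatives, were called lower in DMSO 12 h than in the mean of the other DMSO times. Over all entries 7.65% were called lower there and 8.89% higher. This comparison shares the DMSO 12 h libraries with the one before, so it adds no independent support. The values were for miR-424-5p -0.93 ± 0.18 (edgeR adjusted p = 0.00286) and for miR-15a-5p -0.56 ± 0.14 (adjusted p = 0.00972), the latter not called without DMSO 12 h B (-0.51, adjusted p = 0.0776). The list median was -0.56, beside 0.03 over all entries. In PA 12 h against those DMSO times 0 of 7 passed, beside 0.617% of all entries, and the median was -0.05. miR-16-5p, the most abundant relative at a mean of 9495 CPM, had -0.36 ± 0.13 in DMSO 12 h (adjusted p = 0.0641). miR-103a-3p, with 0.36, had the opposite sign from all 7 relatives in this comparison. The difference in sign was not tested.

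**Figure D4:**
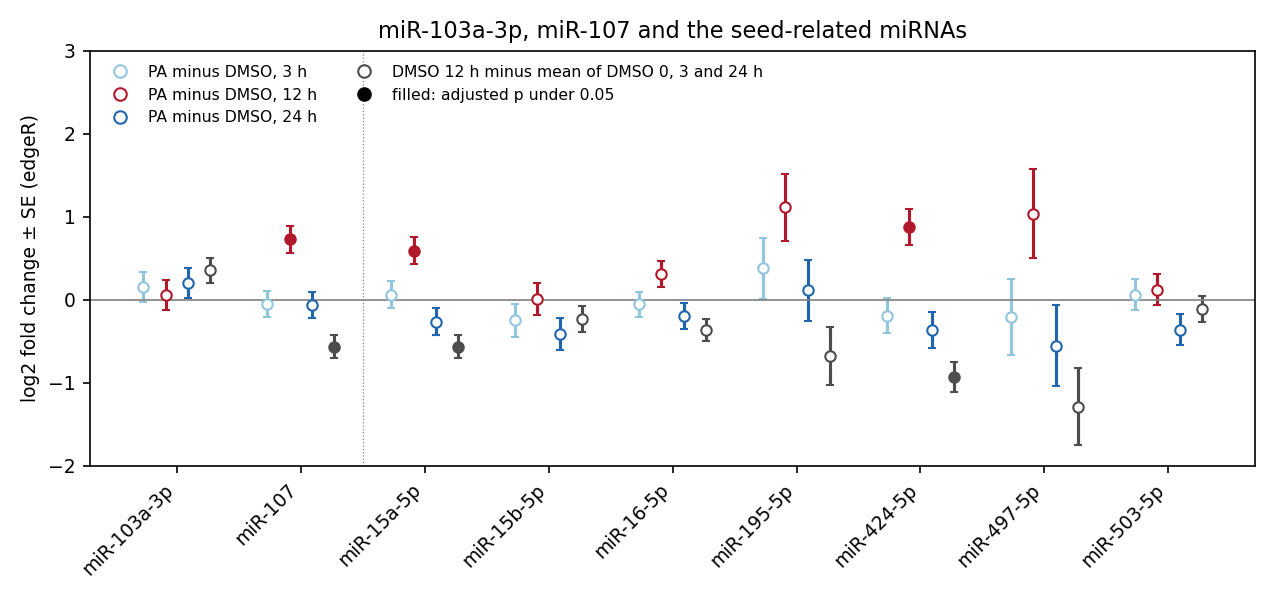
Log2 fold change ± SE (edgeR) of miR-103a-3p, miR-107 and the 7 tested relatives in 4 comparisons marked by color, filled where the adjusted p was under 0.05. miR-107, miR-15a-5p and miR-424-5p are filled above 0 for PA minus DMSO at 12 h and below 0 for DMSO 12 h against the other DMSO times. Both comparisons rest on the same DMSO 12 h libraries. miR-103a-3p is filled in none of the 4.

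Further lists place miR-107 beside miRNAs that it is often grouped with. Of the intronic metabolic miRNAs, miR-33a-5p and miR-33b-5p of the SREBF genes and miR-378a-3p of PPARGC1B, 1 of 3 rose at 12 h of PA, where 6.3% of all entries were called higher: miR-33a-5p (1.63 ± 0.26, edgeR adjusted p = 0.000775). PA 12 h against the other DMSO times gave 0.52 ± 0.19 and no call (adjusted p = 0.256). DMSO 12 h against those times gave -1.10 ± 0.22 (adjusted p = 0.00329). PA 24 h against the mean of DMSO at 0, 3 and 12 h gave 0.95 ± 0.19 (adjusted p = 0.00485). That mean includes DMSO 12 h, and 8.52% of all entries passed there. miR-33b-5p had 1.14 ± 0.44 at 12 h (edgeR adjusted p = 0.11), from 16 counts in DMSO 12 h and 54 in PA 12 h. miR-378a-3p had -0.48 (-0.82 without DMSO 12 h A). In PA against DMSO at 3 or 24 h 0 of 3 passed. Of the p53-linked miR-34a-5p, miR-192-5p, miR-194-5p and miR-215-5p, 3 were tested and 1 rose at 12 h, miR-34a-5p (1.12 ± 0.25, adjusted p = 0.0108), while miR-192-5p had -0.40 and miR-194-5p 0.02. The call of miR-34a-5p was lost with only the 4 libraries compared (adjusted p = 0.0927) and without DMSO 12 h B (0.79, adjusted p = 0.0841). PA 12 h against the other DMSO times gave 0.25 ± 0.20 and no call (adjusted p = 0.601). In DMSO 12 h against those times miR-34a-5p was lower (-0.87, adjusted p = 0.012) and miR-192-5p higher (0.54, adjusted p = 0.0061), and neither was called without DMSO 12 h B. Over all entries 8.89% were called higher and 7.65% lower in DMSO 12 h against those times. At 3 and 24 h of PA 0 of these 3 passed, beside 0.247% and 6.67% of all entries. The list medians at 12 h were 1.14, the value of miR-33b-5p, and 0.02, beside -0.06 over all entries.

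Across the 14 libraries the levels of the members did not follow each other. Pearson's r of log2 CPM was -0.08 and Spearman's rho 0.22 between miR-103a-3p and miR-107, and without the DMSO 12 h libraries r was 0.48 over 12. Among 234 entries with a mean of at least 100 CPM, those most like miR-107 were miR-377-3p (r = 0.91), miR-30b-5p (0.90), miR-96-5p (0.88), miR-33a-5p (0.88) and miR-362-3p (0.87). Without DMSO 12 h these fell to 0.73, 0.51, 0.62, 0.62 and 0.37, with ranks of 7, 35, 19, 20 and 58 among the 234. Over all 14 libraries their Spearman's rho ran from 0.56 (miR-30b-5p) to 0.85 (miR-377-3p). Those most like miR-103a-3p were miR-411-5p (0.80), miR-99b-5p (0.79), miR-92b-3p (0.79), miR-98-5p (0.78) and miR-486-5p (0.78). Without DMSO 12 h they had 0.76 to 0.86 and, in the same order, ranks of 14, 24, 2, 5 and 25. These are descriptions over libraries that share groups, depth and scaling.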

How the data were processed

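Small RNA of 14 PANC-1 libraries was sequenced with paired ends on an Illumina instrument, per the labels' protocols. The authors deposited counts, whole numbers of reads per mature entry and library. They also deposited TPM, which for the members deviated from the count scaled to the column total by 0.00636% or less and was not tested. The tools that the submitters' processing notes list are bcl2fastq, Bowtie and edgeR, with GRCh38 as the build. Their versions, the use of strand and the treatment of reads with several places are not given in the sources used here.

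Groups came from the sample titles. The entire table was fitted with edgeR 4.0.16 under R 4.3.3, by its robust quasi-likelihood test with TMM scaling, after filterByExpr (minimum count 10, minimum total 15). This left 810 entries in 1 fit of 7 groups, and 808 in the mean-effect fit of 12 libraries. P-values were Benjamini-Hochberg adjusted over all entries, with a threshold of 0.05. DESeq2 1.42.0, 2 other scalings, no filter, fewer libraries, a replicate block, omission of the miR-103b row and of each library were tried. With libraries left out the filter was rerun, which changed the number of entries adjusted over. Fits of 7 groups without 1 library tested 896 to 968 entries, and the fit of the 4 libraries of 12 h tested 648. The fit was tested on simulated data. The PA effect on the ratio was tested by exact permutation within times. Likeness was Pearson's r of log2(CPM + 1), and the 5 highest entries were named. Otherwise named were the members, the opposite arm, the AGCAGC relatives, the metabolic and p53-linked lists, and identical pairs with a total of at least 100. Members and lists were chosen with earlier results of these data known.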

Additional observations from a re-analysis of the deposited data

Results flagged for a closer look

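The PA effect on miR-107 differed between 24 and 12 h by -0.79 on the log2 scale (edgeR adjusted p = 0.0405), a difference between times under the same contrast. Both DMSO 12 h libraries (345 and 360 CPM) lay below the other 12, a pattern whose share over all entries was not counted. The call held in 4 of 20 alternative settings.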

How the results depend on the processing

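The call of miR-107 at 12 h of PA (0.73) was lost in the fit of only the 4 libraries compared (0.70) and without PA 12 h A, and leaving out 1 library at a time gave 0.69 to 0.85. Its lower level in DMSO 12 h than at the other DMSO times ranged from -0.61 to -0.52 with 1 library left out and lost its call without DMSO 12 h A. The PA effect at 24 minus 12 h lost its call with RLE (-0.71), DESeq2 (-0.71) and no filter (-0.93), and in 13 of 14 fits without 1 library (-0.90 to -0.71). With total-count scaling, calls were gained for miR-107 in DMSO 12 h against 0 h (-0.50) and for miR-103a-3p in DMSO 12 h against the other DMSO times (0.40).

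Values near 0 changed sign. With total-count scaling, DMSO 3 h against 0 h turned to -0.10 for miR-103a-3p and -0.084 for miR-107, and miR-103a-3p at 24 minus 3 h to -0.17 (no filter -0.044). miR-107 at 24 minus 3 h turned to 0.020 with RLE and 0.021 with DESeq2, and at 3 h to 0.013 without the filter. miR-15b-5p at 12 h turned to -0.037 with total counts, -0.035 with RLE, -0.035 with DESeq2 and -0.014 in the fit of 4 libraries, and miR-194-5p to -0.031, -0.025, -0.024 and -0.0071 in the same order. Without the 4 libraries of 12 h the mean PA effect on miR-107 was -0.028 and that on the ratio -0.22. The cause was not tested.

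Leaving out 1 library gave, for miR-103a-3p with PA, -0.033 to 0.33 at 3 h, -0.031 to 0.21 at 12 h and -0.049 to 0.45 at 24 h, and -0.017 to 0.51 for PA 24 h against the other DMSO times. Its differences in PA effect ran from -0.26 to 0.15 (12 minus 3 h), -0.22 to 0.29 (24 minus 3 h) and -0.12 to 0.39 (24 minus 12 h). For miR-107 the ranges were -0.089 to 0.00021 at 3 h, -0.12 to 0.036 at 24 h, -0.074 to 0.25 for DMSO 3 h against 0 h and -0.083 to 0.085 at 24 minus 3 h. For miR-15b-5p at 12 h the range was -0.16 to 0.23, for miR-194-5p -0.038 to 0.11, and for miR-378a-3p in DMSO 12 h against the other DMSO times -0.014 to 0.78, negative without DMSO 12 h B. The settings for the metabolic and p53-linked lists were added after seeing the data. The log2 ratio in DMSO 12 h ran from -0.99 to -0.84.

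Entries called with 1 library left out numbered 1 to 2 at 3 h of PA, 23 to 62 higher and 11 to 47 lower at 12 h, 12 to 71 at 24 h, 40 to 124 for DMSO 12 h against 0 h, 10 to 50 for DMSO 24 h against 0 h, 79 (without DMSO 12 h B) to 148 for DMSO 12 h against the other DMSO times and 0 to 2 for the mean effect. The low ends were reached without PA 12 h B at 12 h, without DMSO 24 h A at 24 h and without DMSO 0 h A for DMSO 12 h against 0 h. In the fits of only the groups compared they numbered 1 at 3 h, 16 higher and 17 lower at 12 h, and 17, 7 and 72 for DMSO 3, 12 and 24 h against 0 h. Without both DMSO 12 h libraries they numbered 1 at 3 h of PA and 44 for DMSO 24 h against 0 h, which was 48 with no filter. The mean effect had 13 calls with DESeq2 and 16 with no filter. Total-count scaling moved the share of higher calls at 24 h of PA from 64.8% to 38.7%.

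A minus B correlated between groups from -0.166 to 0.114 (21 pairs of groups). This does not tell whether libraries of the same letter shared a culture or a batch. With the letter as a replicate block, miR-107 at 12 h had 0.73 with its call kept, and 44 entries were called higher in place of 51 and 33 lower in place of 39. The count for PA 12 h against the other DMSO times, 5, was unstable: 2 with the block, total counts or RLE, 14 with DESeq2, 16 with no filter and 2 to 15 with 1 library left out.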
